A study of Mus musculus with 5 samples.

Results

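Myc, Mxd1 and Mxi1 were followed for 21 h in cultured mouse macrophages given lipopolysaccharide (LPS), the glycolipid of the outer membrane of Gram-negative bacteria. The macrophages came from bone marrow of the strain C3H/ARC and had been grown with human CSF-1, the growth factor of the lineage; whether animals were pooled is not stated. They were left without LPS (0 h) or given LPS of Salmonella minnesota at 10 µg per ml for 0.5, 2, 7 or 21 h, and 1 two-colour array was hybridised per time. Each array carried, as a common reference, total RNA from whole embryos (strain C57BL6/J, day 17.5). The 3 genes were chosen by their symbols, from a proposal that had the values of these 5 arrays in view, among them a low mean of Mxi1 at 0.5 h. All their levels and changes are therefore a description, and with 1 array per time no test across cultures or animals is possible. They are 3 of 8637 named genes that were measured on all 5 arrays, with 5 probes between them, of which Myc had 1, Mxd1 had 2 and Mxi1 had 2.

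Myc is a transcription factor of the basic helix-loop-helix leucine zipper class that drives growth, ribosome production and entry into the cell cycle. It binds DNA as a dimer with Max, at a short palindrome called the E-box. Mxd1 and Mxi1 pair with the same Max, bind the same E-box and recruit the Sin3 corepressor with its histone deacetylases, so they oppose Myc at shared genes. In cells that leave the cycle and differentiate, Myc is known to give way to Mxd proteins, and in macrophages CSF-1 is a known inducer of Myc.

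The E-box also occurs in promoters of the network's own genes, and it is shown here because it is the sequence that all these dimers read. RefSeq windows of GRCm38.p6, from 250 bases before to 50 bases after a transcription start, were searched for CACGTG, which reads the same on both strands. Of the 13 genes of the Max network list, 12 had a window, and 5 of them (Max, Mxd4, Mnt, Mlx and Mlxipl) held the E-box. Among all 27025 genes with a window, 8.09% held it in at least 1 window. Neither the window of Mxd1 nor any of those of Mxi1 had a match. Myc was not matched to a window. The 30 bases around each match are given 5′ to 3′ on the gene's strand, with the E-box in capitals, for the 4 of these genes that were measured on the arrays.
Max (chr12:76962234-76962263, minus strand): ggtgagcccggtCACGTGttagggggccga
Mxd4 (chr5:34187912-34187941, minus strand): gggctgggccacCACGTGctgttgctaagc
Mnt (chr11:74830789-74830818, plus strand): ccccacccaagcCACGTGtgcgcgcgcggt
Mlx (chr11:101087238-101087267, plus strand): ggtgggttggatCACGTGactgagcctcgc

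The match in Max lies across the transcription start, and those in Mlx, Mnt and Mxd4 begin at positions -40, -123 and -219 relative to it. Of the 3 genes, Mxd1 reached the greatest height above 0 h. The 175 bases at positions -250 to -76 of its window, the stretch outside the gene's annotated span, are printed with GGGCGG, the GC box known to be bound by Sp1, in capitals. The capitals mark 3 matches here. The whole window held 6 on either strand, the others nearer to the start, against at least 1 in 38.2% of all genes with a window. The window also held 4 matches of CCAAT on either strand (41.1% of all genes had at least 1) and none of TGANTCA, the AP-1 site, or of TTCNNNGAA, the GAS element read by STAT factors (8.97% and 9.55% of all genes).
Mxd1 (chr6:86669235-86669409, minus strand): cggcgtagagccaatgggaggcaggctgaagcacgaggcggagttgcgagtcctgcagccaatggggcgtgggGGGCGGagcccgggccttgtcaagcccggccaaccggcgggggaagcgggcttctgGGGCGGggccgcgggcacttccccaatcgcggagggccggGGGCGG

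Levels below are log2 ratios of macrophage to embryo RNA after subtraction of the array median, and changes are differences of these from the 0 h array. The deposited ratios were taken as log10, and neither their base, nor the authors' centring, nor the direction of the ratio is stated. If the base was 2, every log2 value is 3.32 times too large, and with the opposite direction higher and lower exchange. The medians of the deposited columns were 0.0412, 0.0286, 0.0501, -0.0237 and -0.00180 in order of time. On the 0 h array the 9 measured of 22 macrophage markers had a median level of 1.75 and the 24 measured of 27 whole-embryo markers one of -1.23, so that macrophage over embryo is the likely direction. Among the macrophage markers the protease gene Ctss and the lysozyme gene Lyz2 stood at 6.21 and 4.16, but Cd68 and Tyrobp lay at -0.49 and -0.04, and Csf1r, Adgre1 and Itgam had no named probe. The 0.5 h and 2 h arrays carried many high ratios in blocks of consecutive probe numbers. Of 207 runs of 96 numbers, 94 are called affected runs, because 10% or more of their probes exceeded 0 h by 2-fold on one of these arrays. The Myc probe and probe 17497 of Mxd1 lie in such runs, whereas probe 1422 of Mxd1 and both probes of Mxi1 do not. As a measure of spread between probes, the SD over the probes of a gene was pooled over 3015 genes with several probes. It was 0.67, 0.97, 0.51 and 0.47 for changes at 0.5, 2, 7 and 21 h. This pooled SD compares probes on the same arrays, so it does not hold variation between arrays or cultures. Below, "SD over probes" without a further word means the spread within 1 named gene.

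Myc stood above its 0 h level on the early arrays and below it on the late ones. Its probe (8389) read 0.62 at 0 h, 1.91 at 0.5 h, 1.52 at 2 h, -0.29 at 7 h and -1.03 at 21 h. Both early arrays were thus the highest and both late arrays the lowest of the series, and the ratio to whole embryo went from 3.76 at 0.5 h to 0.489 at 21 h. The probe is annotated by an expressed sequence tag rather than by a RefSeq transcript, and no other probe carries the symbol, so that the spread of this gene over probes is unknown. In RNA of a whole culture, fewer cells with Myc and less Myc RNA per cell cannot be told apart.

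Relative to 0 h, Myc was 2.44-fold higher at 0.5 h (log2 change 1.29, pooled SD 0.67) and 1.86-fold higher at 2 h (0.89, pooled SD 0.97). It was 1.88-fold lower at 7 h (-0.91, pooled SD 0.51) and 3.15-fold lower at 21 h (-1.66, pooled SD 0.47). The change at 21 h was the 22nd lowest of 8637 genes, whereas that at 0.5 h was the 357th highest. From the highest to the lowest array, 0.5 h to 21 h, Myc differed 7.70-fold, or 4.86-fold with each run of probes centred on its own median, a setting added after the data were seen. Neighbours in the order of its levels differed by 0.40 (0.5 h and 2 h, pooled SD 0.69) and 0.89 (2 h and 0 h), both within the pooled SD, but by 0.91 (0 h and 7 h) and 0.75 (7 h and 21 h, pooled SD 0.40) on the late side.

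The early values of Myc went with high values in the run of its probe, and the late values did not. Among the 85 probes of the run measured on all arrays, the median change was 0.53 at 0.5 h and 0.80 at 2 h, and 34.1% and 40.0% of these probes exceeded their 0 h ratio by 2-fold. The part of the run in the early values was not tested beyond the scalings that follow. At 7 h and 21 h the run medians were -0.01 and -0.05. With each run centred on its own median, the change of Myc was 0.69 at 0.5 h and 0.05 at 2 h, below 2-fold at both times, and -0.87 at 7 h and -1.60 at 21 h. Quantile normalization gave 0.73, 0.13, -1.18 and -1.95 in the same order. Myc thus lay below 0 h at 7 h and 21 h under each of these scalings. At 7 h it was past 2-fold under quantile normalization and without centring (-1.13). At 0.5 h it was past 2-fold only where whole arrays were centred or left as deposited (1.24).

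**Figure D1:**
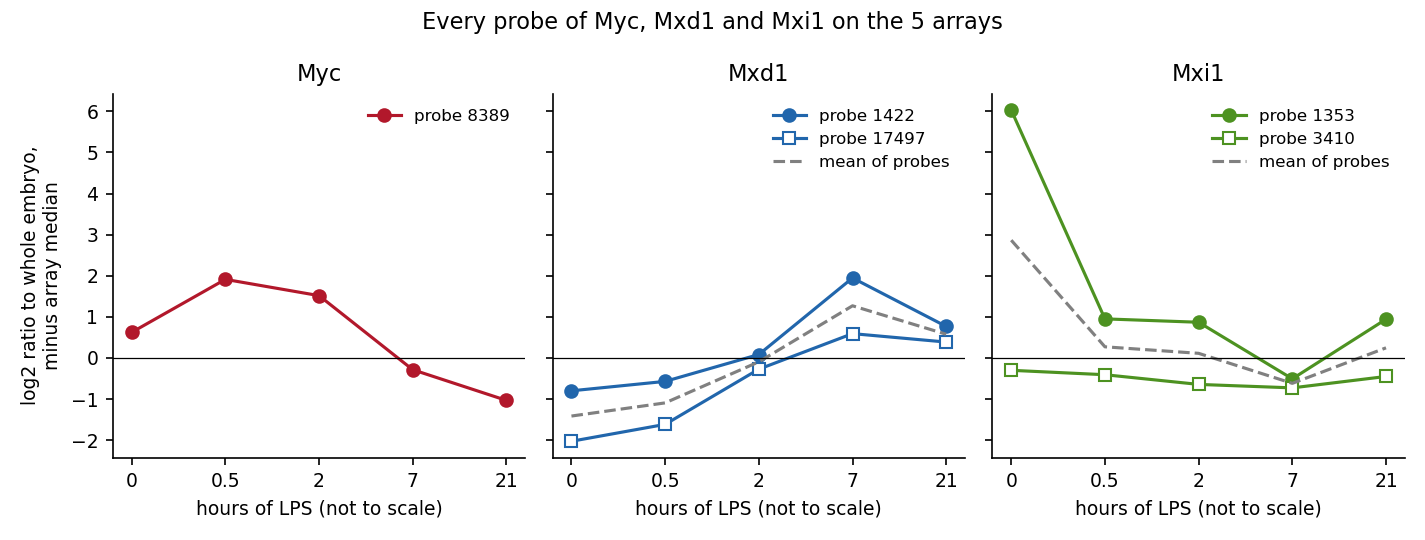
Log2 ratio to whole embryo minus the array median (y axis) for every probe of Myc, Mxd1 and Mxi1 on the arrays at 0, 0.5, 2, 7 and 21 h of LPS (x axis, not to scale), with 1 array per time and the mean of the probes as a dashed line. Myc ends at -1.03, both probes of Mxd1 are highest at 7 h, and probe 1353 of Mxi1 starts at 6.03 while probe 3410 stays between -0.30 and -0.73.

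Mxd1, the antagonist first described as Mad, stood above 0 h at 7 h and 21 h, where Myc stood below it. At 0.5 h and 2 h Mxd1 and Myc were both above 0 h, and from 7 h to 21 h both fell (-0.69 and -0.75). The 2 probes of Mxd1 agreed on the time of the peak. Probe 1422 read -0.80 at 0 h, -0.57 at 0.5 h, 0.08 at 2 h, 1.95 at 7 h and 0.77 at 21 h. Probe 17497 read -2.03, -1.62, -0.27, 0.59 and 0.39 at the same times. On each probe the 0 h array was the lowest, 7 h the highest and 21 h the second highest, and the 2 probes, which lie far apart in probe number, differed more in level than in shape.

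As the mean of both probes, Mxd1 was 1.25-fold above 0 h at 0.5 h (log2 change 0.32, SD over probes 0.13) and 2.49-fold at 2 h (1.32, SD 0.62). At 7 h it was 6.42-fold above 0 h (2.68, SD 0.09), and at 21 h 3.97-fold (1.99, SD 0.60). These were the 18th and the 30th highest changes of 8637 genes at 7 h and 21 h. Its level moved from percentile 3.73 of all genes at 0 h to percentile 95.3 at 7 h. In the order of its levels, 21 h and 2 h (0.67, pooled SD 1.01) and 0.5 h and 0 h (0.32) lay within the pooled SD of each other, while 2 h exceeded 0.5 h by 0.999 (pooled SD 0.69; 0.65 on probe 1422 and 1.34 on probe 17497) and 7 h exceeded 21 h by 0.69 (pooled SD 0.40). That last step was 1.18 on probe 1422 and 0.21 on probe 17497, so the lower value after 7 h differed in size between them.

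The height of Mxd1 was far above the medians of its runs. Probe 1422, outside the affected runs, gave 0.88, 2.75 and 1.57 at 2, 7 and 21 h, and the median change of its run was -0.11, 0.06 and -0.00036. Probe 17497 gave 1.75, 2.62 and 2.41, with run medians of 0.17, 0.24 and 0.14. With each run centred, the mean change was 1.36, 2.68 and 1.95, and quantile normalization gave 1.35, 3.05 and 2.14. Against the 0.5 h array in place of 0 h it was 0.999, 2.36 and 1.67. In each of these settings Mxd1 stood more than 2-fold higher at 7 h and at 21 h. On probe 1422 alone it stayed below 2-fold at 2 h.

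**Figure D2:**
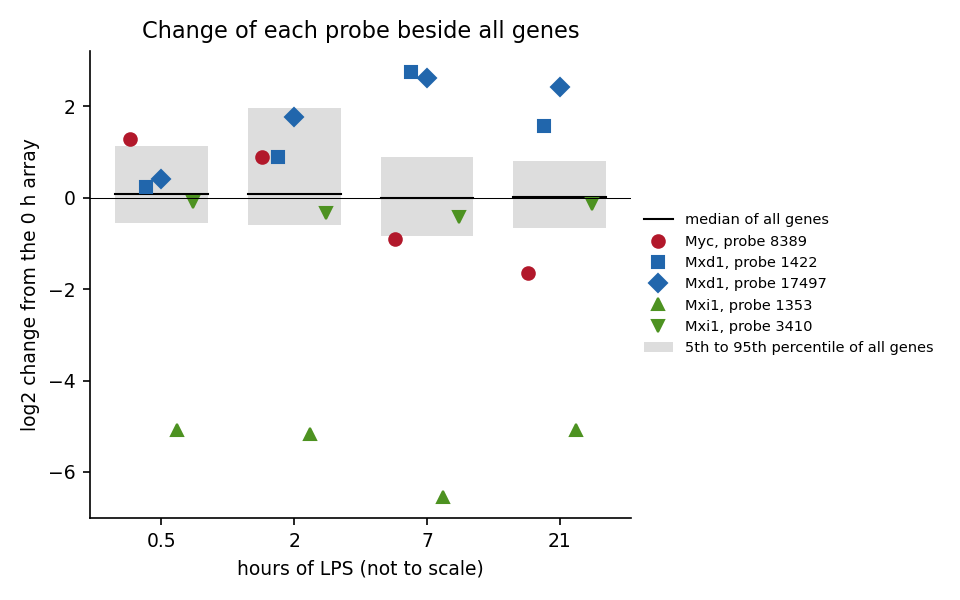
Log2 change from the 0 h array (y axis) of each probe of Myc, Mxd1 and Mxi1 at 0.5, 2, 7 and 21 h (x axis, not to scale), with grey bars from the 5th to the 95th percentile of 8637 genes and a line at their median. Both probes of Mxd1 lie above the bar at 7 h and 21 h, Myc lies below it at both times, and of the 2 probes of Mxi1 only 1353 lies outside the bars.

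Mxi1, the antagonist once named Mad2, had 2 probes that disagreed, and its mean rested on 1 reading. Probe 1353 read 6.03 at 0 h, 0.95 at 0.5 h, 0.87 at 2 h, -0.51 at 7 h and 0.94 at 21 h. Probe 3410 read -0.30, -0.41, -0.64, -0.73 and -0.45. The 0 h reading of probe 1353, 65.4-fold over embryo, was the 2nd highest of 18296 probes on that array. It exceeded the same probe's highest later reading by 5.08, a gap that only 2 probes, this one included, reached. The 2 Mxi1 probes were 6.33 apart at 0 h, the widest gap among 1863 genes with 2 probes (median 0.52), but 0.22 apart at 7 h.

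The mean of both probes gave Mxi1 log2 changes of -2.59, -2.75, -3.48 and -2.62 at 0.5, 2, 7 and 21 h, with SDs over probes of 3.52, 3.41, 4.32 and 3.49 that exceed the changes. These means ranked between 4th and 6th lowest of 8637 genes. Probe 3410 alone gave -0.11, -0.34, -0.43 and -0.15, each within the pooled SD of its time. Both probes named the same RefSeq transcript in the annotation, and both lie outside the affected runs.

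Without the 0 h array, the 2 probes of Mxi1 came closer. Against 0.5 h, the mean change was -0.16 at 2 h, -0.89 at 7 h and -0.025 at 21 h. Both probes were lowest at 7 h, with -1.46 on probe 1353 and -0.32 on probe 3410 relative to 0.5 h. From 7 h to 21 h Mxi1 was higher by 1.45 on the first and 0.28 on the second (pooled SD 0.40). On probe 3410 the step from 2 h to 7 h was -0.08 (pooled SD 1.03). Its steps from 0.5 h to 7 h (pooled SD 0.78) and from 7 h to 21 h also lay within the pooled SD. So a low point at 7 h was shared in direction, but it went beyond the pooled SD only on probe 1353. With 0.5 h as the baseline the mean of Mxi1 was past 2-fold at none of these times. Myc was 4.59-fold below 0.5 h at 7 h, or 2.93-fold with each run centred.

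**Figure D3:**
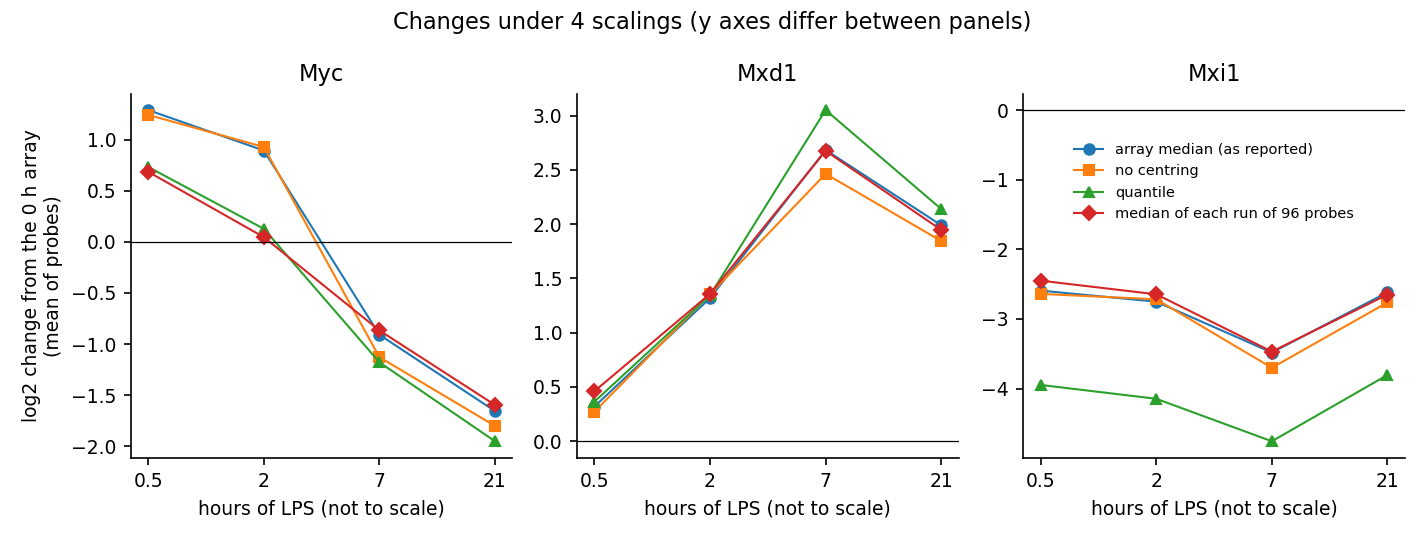
Log2 change from the 0 h array (y axis, different range in each panel) of Myc, Mxd1 and Mxi1 as the mean of their probes at 0.5, 2, 7 and 21 h (x axis, not to scale) under 4 scalings of the arrays. The lines of Myc part at 0.5 h and 2 h, where run centring gives 0.69 and 0.05, those of Mxd1 lie between 2.46 and 3.05 at 7 h, and quantile normalization places Mxi1 lowest.

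Counted as a rule of size, 1 of the 3 genes was at least 2-fold higher at 0.5 h (Myc), where 5.95% of all genes were, and 1 lower (Mxi1), against 1.01%. At 2 h Mxd1 was higher, against 12.4% of all genes, and Mxi1 lower, against 1.1%. At 7 h Mxd1 was higher, against 4.08%, and Mxi1 lower, against 3.16%. At 21 h Mxd1 was higher, against 3.05%, and Myc and Mxi1 were lower, against 1.45%. The genes were chosen with these values in view, and the comparisons share the 0 h array, so nothing is read from these counts.

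The other measured genes of the Max network lay nearer to 0 h than Mxd1 at 7 h and 21 h, and none of them was 2-fold higher at either time. Max, the shared partner, stood at -0.13, -0.23, 0.65, 0.39 and 0.44 in order of time on 1 probe outside the affected runs. It was 1.72-fold above 0 h at 2 h, 1.43-fold at 7 h and 1.48-fold at 21 h. The first of these (log2 change 0.78) was within the pooled SD, and the others (0.52 and 0.57) were just beyond it. Run centring gave 0.70, 0.77 and 0.55. Without centring the values at 7 h and 21 h were 0.30 and 0.42, within the pooled SD.

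Among the other antagonists, Mxd3 (3 probes) had changes of 0.08 at 7 h and -0.08 at 21 h, and Mxd4 (3 probes) of -0.12 and -0.14. These small values changed sign with the scaling for Mxd3 at 7 h (-0.14 without centring). Mnt, a widely expressed antagonist of Myc that also binds Sin3, had 3 probes that spread from -0.94 to 0.11 at 7 h, with a mean of -0.38. Mga, a large Max partner with a second DNA-binding domain, read -0.71 at 7 h and 0.01 at 21 h on 1 probe, the latter turning to -0.14 without centring and under run centring. Of Mxd1, Mxd3 and Mxd4, Mxd1 was thus the one past 2-fold at 7 h and 21 h.

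Mycn, the Myc relative best known from embryonic tissue, read 0.63, -0.07, 1.71, -1.21 and -0.32 in order of time on 1 probe in an affected run. It stood lower than 0 h at 7 h (-1.83) and 21 h (-0.95), and run centring left -1.64 and -0.79. Mlx, a Max-like partner of Mxd1 and of the glucose sensors Mlxip and Mlxipl, was 4.91-fold above 0 h at 0.5 h and 5.14-fold at 2 h. Its 2 probes both lie in affected runs and spread from 0.49 to 4.24 at 2 h, and quantile normalization gave 1.13 and 0.59 at the early times. At 7 h its mean change was 0.05, which turned to -0.17 without centring and to -0.21 under quantile normalization. Mycl, Mlxip and Mlxipl were not among the named genes measured on all 5 arrays, so no levels are given for them.

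**Figure D4:**
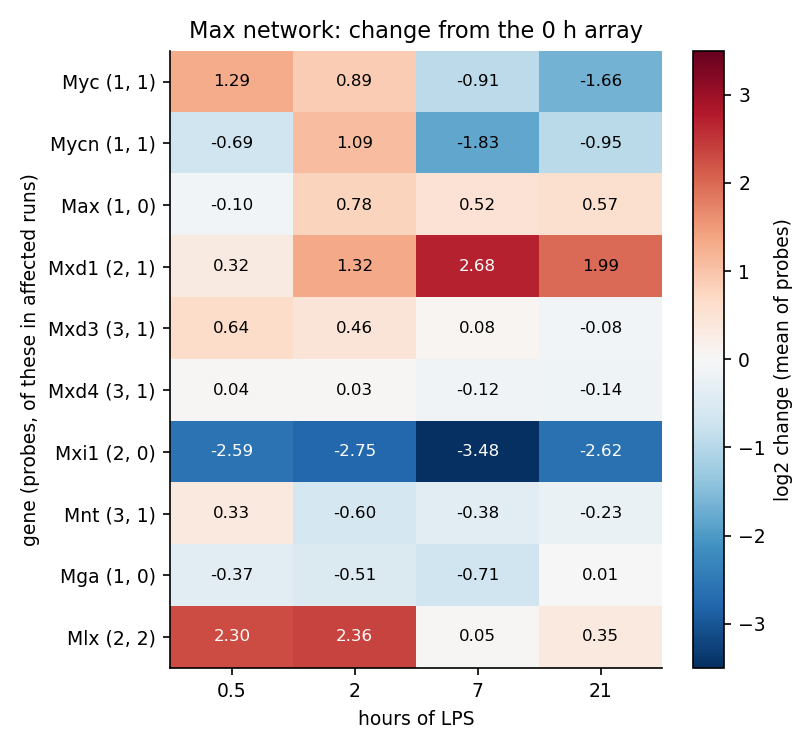
Log2 change from the 0 h array (colour and printed value, mean of the probes) of the 10 measured genes of the Max network at 0.5, 2, 7 and 21 h of LPS, with the number of probes and of probes in affected runs in brackets. At 7 h Mxd1 at 2.68 is the highest and Mxi1 at -3.48 the lowest, the latter through 1 of its 2 probes.

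Cofactors of the network were mostly near 0 h. For this list and those that follow, the shares of all genes past 2-fold were 4.08% above and 3.16% below at 7 h, and 3.05% above and 1.45% below at 21 h. Of 16 measured genes, 2 stood 2-fold or more below 0 h at 7 h and none above, and at 21 h none was past 2-fold, with medians of -0.06 and 0.01 (all genes -0.00029 and 0.02). The 2 lower ones were Trrap, the scaffold of histone acetyltransferase complexes that Myc recruits (-1.63 at 7 h and -0.41 at 21 h), and Bin1, a protein that binds Myc (-1.72 and -0.51), each on 1 probe outside the affected runs. At 2 h Trrap stood at -1.30, and Ep400, the ATPase of an acetyltransferase complex, and Wdr5, a chromatin adaptor, at 1.36 and 1.55 on probes in affected runs.

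Genes of Myc protein turnover had 2 of 8 measured members past 2-fold at 7 h (4.08% of all genes) and 1 at 21 h (3.05%), all above 0 h, with medians of 0.09 and 0.05. Ppp2r1a, the scaffold of the phosphatase PP2A that acts on phosphorylated Myc, was 2.65-fold higher at 7 h and 2.06-fold at 21 h on a probe outside the affected runs. At 21 h it stayed below 2-fold without centring (0.90) and under run centring (0.76). Usp36, a nucleolar deubiquitinase known to act on Myc, stood 1.35 above 0 h at 7 h and 0.57 at 21 h on the log2 scale. Its 1 probe lies in an affected run. The chaperone-linked ubiquitin ligase gene Stub1 read 1.21 (SD over probes 1.05) at 2 h and -0.45 (SD 0.31) at 7 h, on 2 probes in affected runs. Ppp2ca, the catalytic subunit of PP2A, read 0.93 at 7 h and 0.02 at 21 h.

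In CSF-1 receptor signalling, upstream of Myc in this lineage, 1 of 8 measured genes stood past 2-fold at 7 h and again at 21 h, with list medians of 0.27 and -0.0032. It was Map2k1, which encodes the kinase MEK1, with 1.34 (SD over probes 0.55) and 1.42 (SD 0.35). Ets2, a transcription factor downstream of this kinase, had 0.69 (SD 0.54, 4 probes) at 7 h and 0.15 at 21 h. The phosphatase gene Ptpn6 had 0.98 and -0.03, and the PI3-kinase subunit gene Pik3r1 had 2.09 at 2 h, on a probe in an affected run, and -0.23 at 7 h.

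Genes that Myc is known to raise were taken in lists by function. In the ribosome biogenesis and translation list, 1 of 23 measured genes stood past 2-fold at 7 h, above 0 h, and at 21 h 1 stood above and 1 below, with medians of 0.03 and -0.25. The higher gene was Ddx21, a helicase of ribosomal RNA processing, on 1 probe with a low level throughout (-5.28 at 0 h, -3.64 at 21 h). This probe, outside the affected runs, was 2.83-fold above 0 h at 2 h, with changes of 1.62 and 1.63 at 7 h and 21 h. The changes of Myc at these times were 0.89, -0.91 and -1.66. The lower one at 21 h was Bop1, needed for the large ribosomal subunit, at -1.05, named here after its value was seen. Of the other genes with the largest changes, Ddx18 (2.41), Polr1b (1.54) and Rrp9 (1.23) were high at 2 h, where the 2 probes of Ddx18, the probe of Rrp9 and 1 of the 2 of Polr1b lie in affected runs. In all, 17 of the 23 genes lay below 0 h at 21 h, and outside the affected runs the list median was -0.16 (17 genes).

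Of 16 measured growth metabolism targets, 0 were 2-fold higher at 7 h or 21 h, and 1 was lower at each time. The lower gene was Gart at 7 h and Tfrc at 21 h. The list medians were -0.24 and -0.38, and 12 of 16 lay below 0 h at 21 h. The transferrin receptor gene Tfrc, which takes up iron, had -0.85 at 7 h and -2.09 at 21 h on a probe in an affected run, with -1.93 at 21 h under run centring. Gart, an enzyme of purine synthesis, had -1.05 (SD over probes 0.57) and -0.98 (SD 0.21). The purine gene Ppat had -0.68 and -0.85 (SDs 1.22 and 0.62), and the pyrimidine gene Cad 0.17 and 0.11. At 2 h Ppat had 1.74 (SD 2.58), Gart 1.10 (SD 1.53) and Cad 0.996 (SD 0.97), each with probes in affected runs. At that time 2 of the 16 genes were 2-fold higher, against 12.4% of all genes, and the list median was 0.01. Outside the affected runs the median of 13 genes was -0.06 at 7 h and -0.24 at 21 h.

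Mitochondrial and chaperone targets had 0 of 13 genes past 2-fold in either direction at each of the 4 times (without centring Cct5 was past it at 21 h, with -1.04), with medians of 0.11 at 7 h and -0.14 at 21 h. The largest were Cct5, a chaperonin subunit (-0.90, SD over probes 0.25, at 21 h), the cytochrome c gene Cycs (0.75, SD 0.34, 10 probes, at 7 h), C1qbp (0.68 at 2 h) and Pa2g4 (-0.64, SD 0.47, at 21 h). Of 9 genes known as lowered by Myc, 0 were past 2-fold at 7 h or 21 h, with medians of 0.35 and 0.10. At 2 h, Cdkn2b, an inhibitor of cyclin-dependent kinases (2.79, SD 2.97, 6 probes), and the stress gene Gadd45a (2.25) were higher, with 4 of the 6 probes and the single probe in affected runs. Ndrg1, a growth arrest gene, had -0.69 at 7 h. Gas1, another, had -1.09 at 0.5 h, -0.70 at 2 h and 0.71 at 21 h. Its 1 probe lies in an affected run and had a low level throughout (-4.88 at 0 h, -4.17 at 21 h).

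The cell cycle list lay lower late, as Myc did, but its 7 h value depended on the runs. Of 24 measured genes, 6 stood 2-fold or more below 0 h and 1 above it at 7 h, against 8 and 0 at 21 h. Below 0 h stood 3.16% and 1.45% of all genes at these times. The list had medians of -0.39 and -0.65. Outside the affected runs, 14 genes remained, of which 1 stood below and 1 above at 7 h (median 0.12), and 2 below and 0 above at 21 h (median -0.28). Ccnd1, the cyclin of entry into the cycle, had -2.29 (SD over probes 0.97) at 7 h and -2.06 (SD 0.68) at 21 h. The thymidine kinase gene Tk1 had -2.02, the replication helicase gene Mcm6 -1.79 and the mitotic cyclin gene Ccnb2 -1.73 (SD 1.76) at 21 h.

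**Figure D5:**
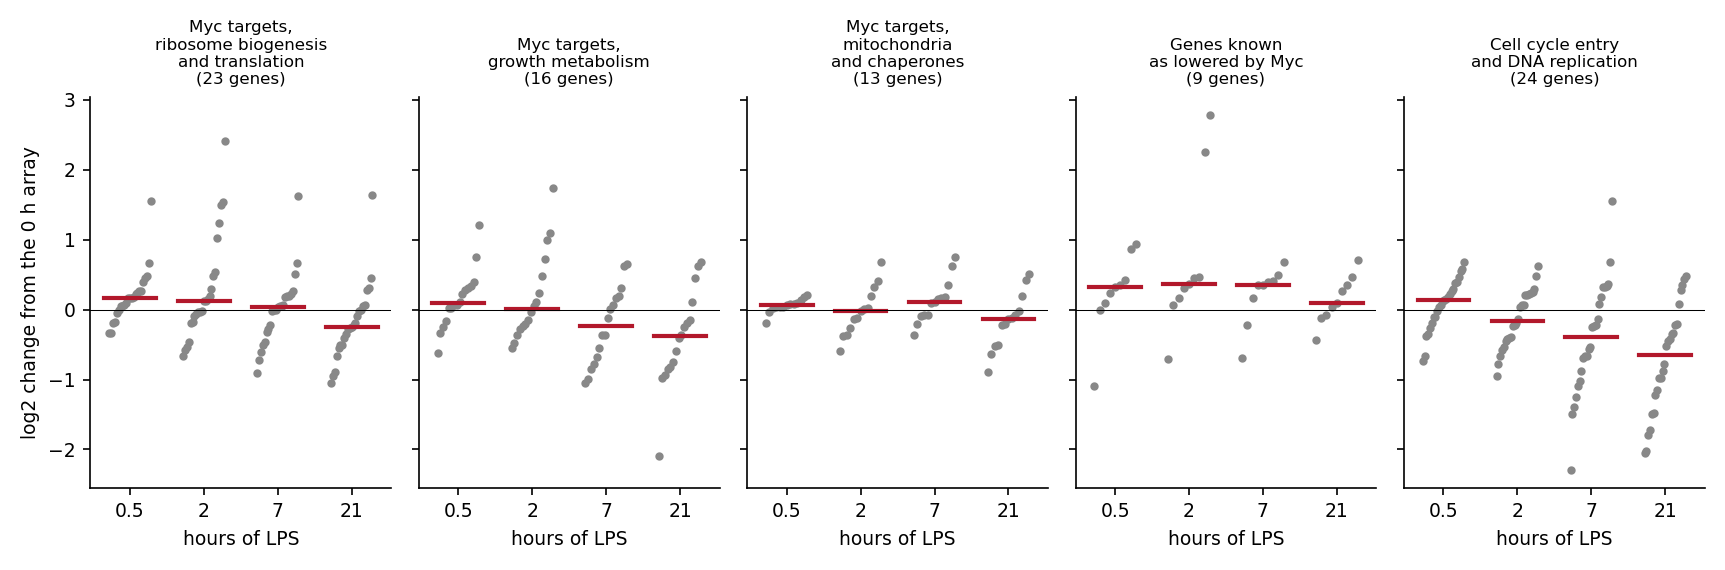
Log2 change from the 0 h array (y axis) at 0.5, 2, 7 and 21 h (x axis) for the measured genes of 5 lists, each point a gene (mean of its probes) and each red line the list median. The cell cycle medians of -0.39 and -0.65 at 7 h and 21 h are the lowest of the 5 lists at these times, and the mitochondrial and chaperone genes stay within 2-fold.

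The genes whose pattern was most like each member were taken among genes with 2 or more probes, by the root mean square difference of the 4 changes from 0 h. For Myc these were Cdc6 (0.38), a loader of the replication helicase, Smc2 (0.45), a subunit of condensin, Cers5 (0.48), a ceramide synthase, and Mcm4 (0.55), a subunit of the replication helicase. The 2 probes of Mcm4 read alike, with changes of 0.69, 0.21, -1.25 and -1.14 and an SD over probes of at most 0.10. For Cdc6 the changes were 1.17, 0.66, -1.09 and -0.95, with SDs of 1.38 and 1.25 at the early times and 0.19 and 0.28 at the late ones. All these patterns share the 5 arrays and the affected runs, which hold all probes of Smc2 and Mcm4 and 1 of 2 of Cdc6 and Cers5.

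For Mxd1 the most like patterns were those of Irf7 (0.25), a regulator of type I interferon genes, Sod2 (0.39), the mitochondrial superoxide dismutase, Igtp (0.48), an interferon-induced GTPase, and Serp1 (0.52), a protein of the endoplasmic reticulum. For Sod2 the SDs over probes were 1.87 and 2.02 at 7 h and 21 h. Irf7 had changes of 0.30, 1.35, 2.24 and 1.74 beside the 0.32, 1.32, 2.68 and 1.99 of Mxd1, with both of its probes outside the affected runs. The SDs over these probes were 0.15, 1.33, 0.49 and 0.25, so its 2 probes disagreed at 2 h. Igtp had 2.42 (SD over probes 0.22) at 7 h and 1.11 (SD 0.05) at 21 h, so it too was highest at 7 h. For Mxi1 no gene came closer than 1.59 (Pxdn, a peroxidase of the extracellular matrix), followed by Dcn (1.76), Kng1 (1.89) and 2310022B05Rik (1.94). No gene with several probes thus had changes near those of the Mxi1 mean.

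Markers of other blood cells were checked beside the changes of Mxd1 and Myc. The 6 measured of 10 neutrophil markers had a median level of 0.30 at 0 h, 0.24 at 7 h and -0.34 at 21 h, and 0 of them were 2-fold above 0 h at 7 h or 21 h. At 21 h, when Myc was lowest, 5 of the 6 lay below 0 h, 2 of them past 2-fold, Ngp (-1.62, SD over probes 1.08) and Mpo (-1.25). The 3 measured of 8 B cell markers had medians of 0.28, 0.53 and 0.72 at these times, and all 3 stood above 0 h at 7 h and 21 h. Among them Cd79b, a chain of the B cell receptor complex, changed by 2.41 at 7 h and 1.79 at 21 h on 1 probe. Vpreb1 changed by 1.03 and 0.33, and Cd79a by 0.25 and 0.46. At 7 h 2 of the 3 were past 2-fold (4.08% of all genes were higher), and at 21 h 1 was (3.05%). The 3 measured of 11 T and NK cell markers had medians of -0.23, -0.03 and -0.23, and the 5 measured of 7 erythroid markers -1.48, -0.0055 and -0.94. At 7 h, 2 of these 5 stood past 2-fold above 0 h, Klf1 (1.56) and Alas2 (1.35, SD over probes 1.73). The others were Epb42 (0.38), the globin gene Hba-a1 (-0.02, 14 probes) and Slc4a1 (-0.47). The part of such cells in the changes of Mxd1 and Myc was not tested.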

How the data were processed

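The deposited table holds 1 log ratio for each of 19828 probes and 5 arrays. The authors deposited these values with no stated base, and they were read as log10 from their range. Scanner intensities, background correction and normalization are not given in the sources used here. Ratios were multiplied by 3.32 to give log2 values, and the median of 18296 probes (those with a value at every time) was subtracted within each array. Of the probes, 14759 had exactly 1 symbol in the 2008 platform annotation, 170 had several, 4899 had none here, and 14628 were matched by Entrez identifier to GRCm38.p6. Probes were averaged per symbol. The scripts were tested on simulated data (Python 3.11.15, pandas 2.3.3).

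The members and lists were chosen with earlier results of these data known. Named are all members, every measured Max network gene, up to 4 genes of each other list with the largest change at 2, 7 or 21 h, and the 4 most like patterns per member among genes with at least 2 probes. Other genes are named as markers or as said. No p-value was computed, since each time has 1 array, and this small number of arrays limits the precision. Alternatives were no centring, quantile normalization, centring per run, leaving out the affected runs, all probes of 2 arrays, the 0.5 h baseline, single probes and a 1.5-fold count.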

Additional observations from a re-analysis of the deposited data

How the results depend on the processing

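Of the 84 recomputed changes of Myc, Mxd1 and Mxi1, 63 moved by less than the pooled SD over probes of their time, and 21 moved by more, 15 of them for Mxi1. The changes of Mxi1 at 0.5, 2, 7 and 21 h were -3.95, -4.15, -4.76 and -3.81 under quantile normalization, -5.08, -5.16, -6.54 and -5.09 on probe 1353 alone, and -0.11, -0.34, -0.43 and -0.15 on probe 3410 alone. Against the 0.5 h array they were -0.16, -0.89 and -0.025 at 2, 7 and 21 h, and those of Myc were -0.40, -2.20 and -2.94, or -0.64, -1.55 and -2.28 with each run centred as well, chosen after seeing the data. Myc has no value without the affected runs. Of 207 recomputed list medians, 36 changed sign. Without the affected runs, that of the cell cycle list at 7 h went from -0.39 to 0.12 and that of the Max network at 2 h from 0.62 to -0.16. These runs were chosen by high values at 0.5 h or 2 h. A lower median at 2 h without them thus follows in part from the choice, and nothing is concluded from it. No paired analysis was possible because each time has 1 array.

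Genes at least 2-fold higher and lower numbered 514 and 87 at 0.5 h, 1071 and 95 at 2 h, 352 and 273 at 7 h, and 263 and 125 at 21 h. Without centring, the median gene lay at -0.22 at 7 h and -0.12 at 21 h, and the counts were 220 and 510, and 190 and 222. Quantile normalization gave 240 and 298, 430 and 395, 417 and 516, and 324 and 391 in order of time. The affected runs were picked for values above 0 h on the 2 early arrays, so fewer higher genes there without them follow from that rule. Without these runs 5996 genes remained, and the counts were 77 and 59, 253 and 93, 271 and 172, and 153 and 65. Against the 0.5 h array the counts, again among all 8637 genes, were 694 and 138, 235 and 709, and 195 and 627 at 2, 7 and 21 h. At 1.5-fold they were 1098 and 378, 1887 and 493, 1000 and 930, and 788 and 560. With 1 array per time, a reading such as that of probe 1353 at 0 h has no second array to set it against.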

Other observations

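The share of genes with an E-box in a RefSeq promoter window was 11.2% among 6963 measured genes. It was 38.5% of 13 mitochondrial and chaperone targets, 22.2% of 18 ribosome biogenesis and translation targets, and 18.8% of 16 growth metabolism targets, and 3 of 20 cell cycle genes held one. At 21 h, when Myc was lowest, the median change of all measured genes with an E-box was -0.01 and that of genes without was 0.03. These medians were -0.30 and -0.05 in the ribosome biogenesis and translation list, and -0.52 and -0.45 in the cell cycle list. In the growth metabolism list they were -0.60 (3 genes) and -0.36 (13 genes), and in the mitochondrial and chaperone list -0.07 (5 genes) and -0.21 (8 genes). Genes with an E-box thus had the lower median in 3 of these 4 lists, but these groups held only 3 to 5 genes each. Among genes known as lowered by Myc, 1 of 6 held an E-box. Its change at 21 h was 0.47, beside a median of 0.10 without an E-box. A match of these letters is no binding site by itself, and no test was made.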
